A study of Homo sapiens with 16 samples.

Results

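Chemokines are small secreted proteins that draw leukocytes and other cells along a concentration gradient. They fall into CXC, CC and CX3C families by the spacing of their first cysteines, and they act through G-protein-coupled receptors named after the family they bind (CXCR, CCR). Several CXC ligands, IL8 (CXCL8) among them, are classical targets of NF-kB in epithelial and tumor cells, while the CXCL12 receptor CXCR4 is known for its part in tumor cell migration. The chemokine and chemokine receptor genes were taken from the gene tables by symbol, as every gene named CXCL, CCL, CXCR or CCR followed by a number, plus IL8, CX3CL1 and ACKR3. This gave 59 gene identifiers of 63677, made up of 42 ligands and 17 receptors. They carried 56 symbols, because CCL5, CCL24 and CCL26 each had 2 identifiers.

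RNA-Seq was performed on the pancreatic cancer cell lines Mia-PaCa-2 (MiaPaCa2) and PANC-1 (PANC1), both grown in the same serum-containing medium. Cells of each line were harvested after 24 hours without drug (control), with 40 nM gemcitabine, with 50 µM genistein, or with both drugs, and 2 biological replicates per group gave 16 libraries. Gemcitabine is a nucleoside analogue that blocks DNA replication, and genistein is a soy phytoestrogen. The libraries held between 12943482 and 31991860 reads counted on genes. Each line is a single established line, so a difference between MiaPaCa2 and PANC1 is a difference between these 2 lines. In bulk RNA, fewer cells carrying a transcript and less transcript per cell cannot be told apart.

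The epithelial keratins KRT8 and KRT18 were above 369 FPKM (the expression unit of Cufflinks, reads scaled by exon length and library depth) in every library of both lines. Of 10 leukocyte markers, 2 in MiaPaCa2 and 3 in PANC1 passed 1 FPKM in a library. They were CD14 (up to 4.98 FPKM in MiaPaCa2 and 1.48 in PANC1), CD68 (up to 37.6 and 221) and, in PANC1, ITGAM (up to 1.46). CD68 had at most 4 and 17 reads beside those FPKM, so its counts and FPKM disagree. The defining markers PTPRC, CD3E, CD3D and MS4A1 had at most 1 read in any library, and FCGR3A had none. The duct marker KRT7 was low in MiaPaCa2, with at most 9 reads in a library, against up to 123 in PANC1. Replicates of several groups differed along the GC content of the genes. Across genes, the Spearman correlation between exon GC content and the log2 difference of the replicates ran from -0.74 in PANC1 given both drugs to 0.75 in PANC1 controls. A fit with each library's GC trend removed was therefore run beside the main fit, and its value is given wherever it changed a call among these genes or the direction of a printed value. CCL5 had no GC value and was left out of that fit.

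The first question was which of the genes were counted at all. In MiaPaCa2, 23 of the 59 identifiers had at least 1 read in 1 of the 8 libraries (18 ligands and 5 receptors). In PANC1 there were 30 (23 ligands and 7 receptors). The lines shared 21 of these, 2 were counted in MiaPaCa2 alone and 9 in PANC1 alone, and 27 had no read in either line. Many of these counts were tiny. With more than 3 reads required in a library, 12 identifiers were left in MiaPaCa2 and 14 in PANC1, and a mean above 1 FPKM in a treatment group was reached by 10 and 8. A count of 0 allows for up to 3 reads in a library (0.0938 to 0.232 CPM, reads scaled to library size, counting error only), so these genes were not detectable at this depth rather than shown to be absent. For CCL27 and CCR6 a count of 0 says less than that, because 97.64% and 85.22% of their exon bases lie in another gene on the same strand, and HTSeq by default leaves out a read that falls on 2 genes. Their FPKM reached 1.39 and 0.243 in a library.

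With more than 3 reads required in a library, 3 of 17 receptors were left in MiaPaCa2 and 2 of 17 in PANC1. For ligands it was 9 of 42 and 12 of 42, so the shares were similar in MiaPaCa2 and lower for receptors in PANC1. CXCR4 had 595 reads over the MiaPaCa2 libraries and 304 over the PANC1 libraries. ACKR3, the atypical receptor that takes up CXCL12, had 1443 and 8, and CCR10, the receptor for CCL27 and CCL28, had 99 and 128. Of CCR10's exon bases, 17.68% overlap CNTNAP1 on the opposite strand. The strand setting of the counting is not given in the sources used here, so its reads may include that neighbour's, and the same limit holds for CXCR5 (91.15%, BCL9L) and CXCL5 (17.32%). CCR4, CCR7, CXCR3 and CXCR5 never passed 2 reads in a library. No read was counted for CXCR1 and CXCR2, the receptors for IL8 and the CXCL1 group, nor for CXCR6, the receptor for CXCL16. The same held for CCR1, CCR2, CCR3, CCR6, CCR8 and CCR9.

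Among the ligands, 10 were high enough to be given by library, namely IL8, CXCL1, CXCL2, CXCL3, CXCL5, CXCL6, CXCL16, CX3CL1, CCL2 and CCL28, and CCL5 joined them through 1 of its 2 identifiers (ENSG00000161570), while the other had no read. CXCL12, the ligand shared by CXCR4 and ACKR3, had no read in MiaPaCa2 and 56 in PANC1, at most 12 in a library. CCL20, the ligand of CCR6, had 3 and 10 reads. CCL22, a ligand of CCR4, had 9 and 2. CCL7, CCL17, CCL18, CCL25, CCL26, CXCL10, CXCL11, CXCL14, CCL11, CCL13 and CCL21 never passed 3 reads in a library. No read was counted for CCL1, CCL3, CCL4, CCL8, CCL14, CCL15, CCL16, CCL19, CCL23, CCL24, CCL27, CXCL9, CXCL13 or CXCL17, nor for the second identifiers of CCL5, CCL24 and CCL26.

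**Figure D1:**
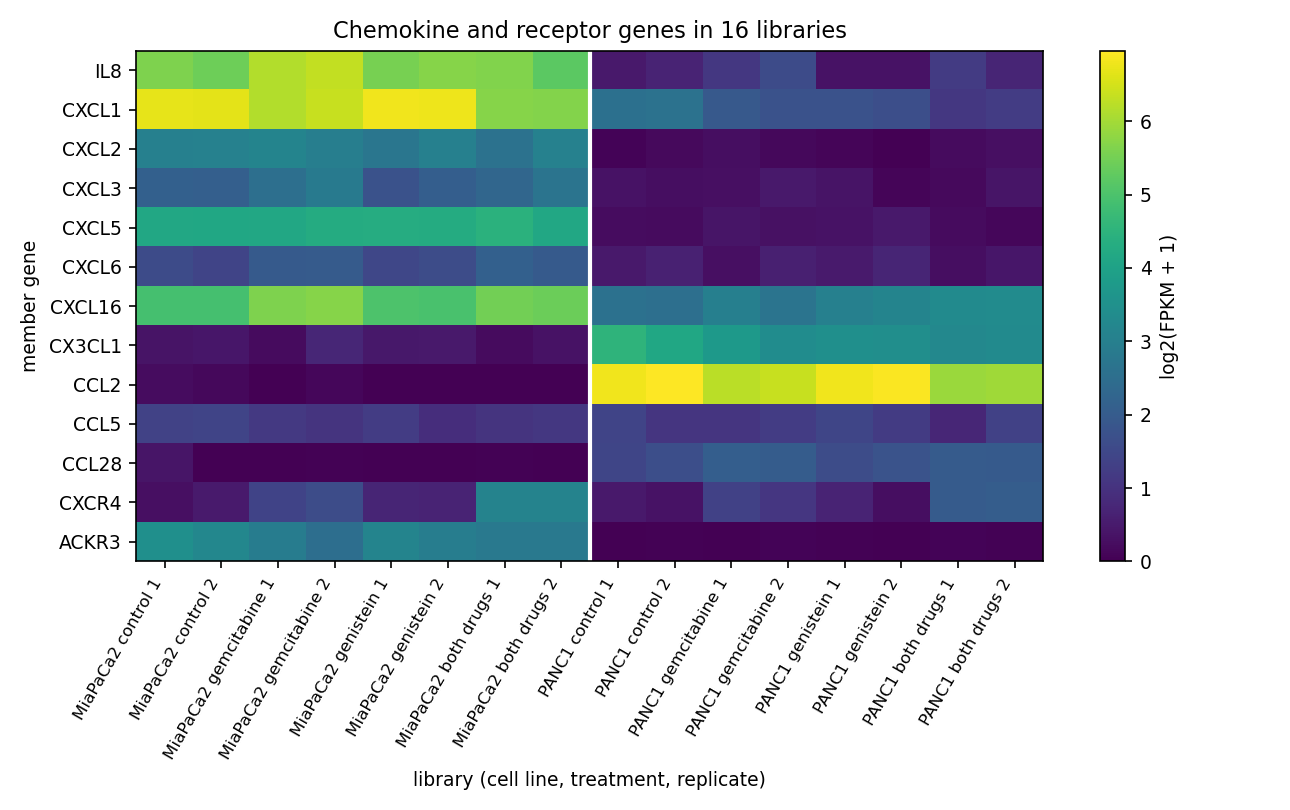
Level of the 13 chemokine and receptor genes with a mean above 1 FPKM in at least 1 group, as log2(FPKM + 1), in each of the 16 libraries (columns, replicates 1 and 2 side by side); the white line parts MiaPaCa2 from PANC1. The IL8 to CXCL6 rows and ACKR3 are brighter in MiaPaCa2 than in PANC1, and CCL2, CX3CL1 and CCL28 are brighter in PANC1. CXCR4 is brightest in the libraries given both drugs in both lines.

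The 6 counted CXC ligands IL8, CXCL6, CXCL1, CXCL5, CXCL3 and CXCL2 lie in 1 cluster on chromosome 4 (GRCh37, chr4:74606236-74964913), 358.678 kb from end to end. All of them bind CXCR2 and attract neutrophils. Promoters were looked up in RefSeq, which gave one for 43 of the 59 identifiers and for 8 of the 13 genes given by library. The stretches shown for the cluster hold the longest run of bases that its promoters share, since the cluster is where the lines differed as a block. In the 250 bases before the start, the longest run common to CXCL1, CXCL2, CXCL3, CXCL5 and CXCL6 was GGGAATTTCCC, and the longest common to these 5 and IL8 was GGAATTTCC, which lies inside it. Both match the form of a known NF-kB site. The runs were picked from these promoters, so finding them there is no test. On both strands of all 35116 promoters of the table, the longer run was found in 0.0769% and the shorter in 0.413%. Among the members, the shorter was found at 8 identifiers, CXCL10 and CXCL11 being the others. The IL8 stretch also holds the AP-1 motif TGANTCA, present in 6.57% of all promoters. Capitals mark the motifs, each sequence reads 5′ to 3′ on the gene's strand, and coordinates are GRCh37 by exact match.
IL8 (chr4:74606139-74606228, + strand): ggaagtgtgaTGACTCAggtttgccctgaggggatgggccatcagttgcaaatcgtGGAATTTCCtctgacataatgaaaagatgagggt
CXCL6 (chr4:74702280-74702340, + strand): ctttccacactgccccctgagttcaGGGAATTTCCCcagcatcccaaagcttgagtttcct
CXCL5 (chr4:74864450-74864510, - strand): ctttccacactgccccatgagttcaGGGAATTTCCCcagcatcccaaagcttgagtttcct
CXCL1 (chr4:74735006-74735066, + strand): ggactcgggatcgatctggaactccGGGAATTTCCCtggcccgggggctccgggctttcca
CXCL3 (chr4:74904450-74904510, - strand): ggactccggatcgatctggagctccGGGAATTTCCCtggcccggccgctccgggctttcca
CXCL2 (chr4:74964955-74965015, - strand): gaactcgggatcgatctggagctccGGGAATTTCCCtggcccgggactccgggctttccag

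The shorter run, shared by all 6 genes, began 77 to 91 bases before the start. CXCL6 and CXCL5 were identical at 60 of the 61 bases printed, and CXCL1 and CXCL3 at 57. CXCL2 matched CXCL1 at 49. The stretches were compared position by position without gaps. CXCL2 lacks a base after the run, which shifts its last bases, so 49 understates its likeness to CXCL1. Between the CXCL5 pair and the CXCL1 group, 27 to 29 bases were identical. Transcripts of such paralogs can also share 50-base reads. Reads that aligned to more than 1 place were removed upstream, so counts of CXCL1, CXCL2 and CXCL3, and of CXCL5 and CXCL6, may miss reads from the stretches they share. A motif match describes the letters in this window and is no evidence of binding in these cells.

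Untreated cells of the 2 lines differed in the level of most counted ligands. Mean FPKM was above 1 in the controls of both MiaPaCa2 and PANC1 for CXCL1 (101.9 and 5.01), CXCL16 (28.9 and 4.89) and CCL5 (1.65 and 1.41). MiaPaCa2 was high in the CXC cluster, in CXCL16 and in ACKR3, while PANC1 was high in CCL2, CX3CL1 and CCL28. Of 15 genes tested between untreated lines with limma-voom, 11 passed the thresholds (adjusted p at most 0.05, log2 fold change of at least 0.4 in size, and more than 1 FPKM in the higher group). The 8 lower in PANC1 were the 6 genes of the cluster, CXCL16 and ACKR3, and the 3 higher were CX3CL1, CCL28 and CCL2. CXCL2, CXCL3, CXCL5 and ACKR3 had enough reads for testing in MiaPaCa2 alone, and CCL2, CCL28 and CXCL12 in PANC1 alone. These genes entered the test through the line where they are high, so a difference between the lines was largely set by their entry. The background was large, as 52.3% of all 17863 genes passed, 27.9% higher and 24.3% lower.

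CXCL1 was the highest of the cluster per length in MiaPaCa2. Its control libraries measured 102.6 and 101.2 FPKM in MiaPaCa2 against 4.89 and 5.13 in PANC1 (log2 difference -4.43, SE 0.13, limma-voom adjusted p = 1.9e-11). IL8 stood at 48.0 and 42.0 FPKM in MiaPaCa2 controls and at 0.379 and 0.614 in PANC1 controls (-6.63, SE 0.35). CXCL5, a neutrophil attractant of epithelial cells, stood at 17.0 and 16.6 against 0.170 and 0.159 FPKM (-7.77, SE 0.38). The remaining 3 were lower in level. CXCL2 measured 7.19 and 7.26 FPKM against 0.0558 and 0.126, and since PANC1 controls held only 1 and 2 reads the difference is given as at least 58.5-fold. CXCL3 measured 3.40 and 3.28 against 0.264 and 0.200 FPKM (-3.94, SE 0.37). CXCL6 had the smallest gap, with 2.03 and 1.71 against 0.398 and 0.558 FPKM (-1.93, SE 0.28). In no gene of the cluster did the control libraries of the lines overlap, a weak criterion with 2 libraries per line. The share of all genes without such overlap was not counted.

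**Figure D2:**
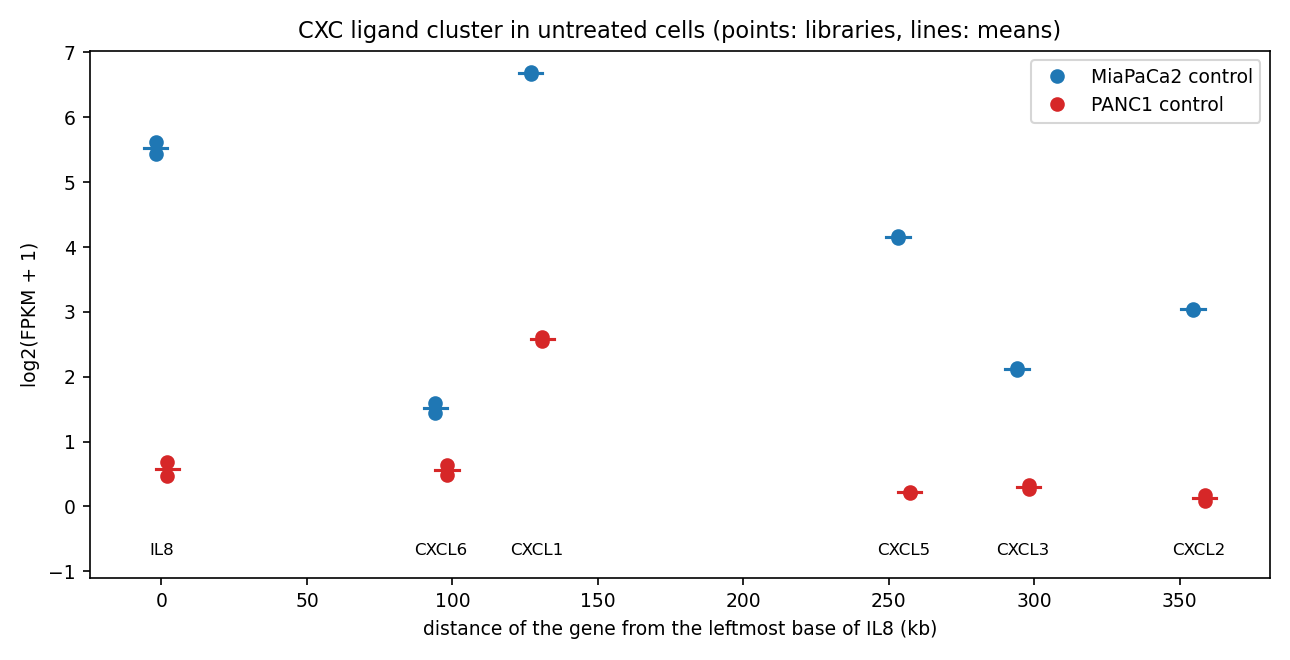
Level of the 6 CXC ligands in untreated cells as log2(FPKM + 1) against the distance of each gene from the IL8 end of the chromosome 4 cluster in kb; points are the 2 libraries of each line and short lines their means (the lines are set slightly apart for visibility). Every MiaPaCa2 point lies above the PANC1 points of the same gene, and CXCL1 is the highest gene in both lines.

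CXCL16, a membrane-bound CXC ligand that also acts as a scavenger receptor for oxidized lipoproteins, was counted in both lines. It measured 29.0 and 28.8 FPKM in MiaPaCa2 controls and 5.01 and 4.77 in PANC1 controls (-2.52, SE 0.13). ACKR3 measured 9.96 and 8.34 FPKM in MiaPaCa2, whereas PANC1 controls had 0 and 2 reads, so MiaPaCa2 was at least 127-fold higher. CCL2, the main attractant of monocytes, went the other way. It had 111.7 and 123.5 FPKM in PANC1 controls and 2 and 1 reads in MiaPaCa2 controls, a difference of at least 389-fold. CX3CL1, the membrane-tethered chemokine fractalkine, measured 21.9 and 16.8 FPKM in PANC1 against 0.286 and 0.340 in MiaPaCa2 (5.51, SE 0.34). CCL28, a chemokine of mucosal epithelia, measured 1.77 and 2.17 FPKM in PANC1 and had 2 and 0 reads in MiaPaCa2, at least 28.6-fold apart.

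CXCR4, CCL5 and CCR10 did not pass between untreated lines. CXCR4 had 7 and 10 reads in MiaPaCa2 controls and 15 each in PANC1 controls, and its log2 difference of -0.00 had an interval of -0.97 to 0.96 (2 SE either way), too wide to call the lines alike. CCL5, an attractant of T cells, measured 1.61 and 1.70 FPKM against 1.70 and 1.11. CXCL12 passed on the adjusted p alone (2.47, SE 0.55), with all of its reads in PANC1 and a level under 1 FPKM.

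The next comparison asked how gemcitabine alone changed these genes. In MiaPaCa2, 12 of them passed the filter on low counts and were tested, and 6 of the 12 were called, 4 higher (CXCR4, CXCL16, IL8 and CXCL6) and 2 lower (ACKR3 and CXCL1). Of all 16064 genes tested in that line 29.6% were called, 15% higher and 14.6% lower. In PANC1, 11 were tested and 5 called, 2 higher (CXCR4 and IL8) and 3 lower (CXCL1, CX3CL1 and CCL2), against a background of 7.52% of 16909 genes, 4.49% higher and 3.03% lower. CXCR4 and IL8 were called higher and CXCL1 lower in both lines, and all 5 PANC1 calls were lost in at least 1 fit that left out a library.

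CXCR4 (chr2:136871919-136876747, - strand) had the largest fitted change of the chemokine and receptor genes in each line, although in PANC1 IL8 lay above it without gemcitabine replicate 1 (2.08 against 1.77) or control replicate 2 (1.97 against 1.61). In MiaPaCa2 it went from 7 and 10 reads in controls to 47 and 62 with gemcitabine (0.221 and 0.414 FPKM to 1.62 and 2.098). The log2 fold change was 2.45 (SE 0.37, limma-voom adjusted p = 0.00034). In PANC1 it went from 15 and 15 reads to 48 and 41 (0.383 and 0.260 FPKM to 1.54 and 1.16), a log2 fold change of 1.96 (SE 0.40, limma-voom adjusted p = 0.027). No treated library overlapped a control library in either line, a weak criterion with 2 libraries per group. How many of all genes were separated in this way was not counted. The PANC1 call was lost in each of the 4 fits that left out 1 library of the comparison (adjusted p 0.0589 to 0.156), with fold changes of 1.61 to 2.22.

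The CXCR4 promoter is shown because CXCR4 had the largest fitted drug change of the family. RefSeq gives 3 start sites, of which the stretch printed belongs to the most upstream. Capitals mark the GC box GGGCGG, here on the opposite strand as its reverse complement, a motif found in 42.6% of all promoters and therefore common. None of the NF-kB or AP-1 letters above was found in the 250 bases before any of the 3 starts.
CXCR4 (chr2:136875759-136875866, - strand): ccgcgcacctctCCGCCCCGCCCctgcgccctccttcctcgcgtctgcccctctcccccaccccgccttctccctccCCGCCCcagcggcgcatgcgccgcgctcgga

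IL8 rose with gemcitabine in both lines from very different levels. In MiaPaCa2 it went from 48.0 and 42.0 FPKM in controls to 71.0 and 78.4 (log2 fold change 0.64, SE 0.12, limma-voom adjusted p = 0.0014). The GC-corrected value was 1.23. IL8 exons hold 31.6% GC against a median of 48.0% over the genes tested, and GC correction moved it more than most members. In PANC1 it went from 14 and 30 reads to 38 and 73 (0.379 and 0.614 FPKM to 1.20 and 2.01), a log2 fold change of 1.72 (SE 0.43, limma-voom adjusted p = 0.049). That call lay close to the threshold and was lost in all 4 fits leaving out 1 library (adjusted p 0.074 to 0.278).

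CXCL1, of the same cluster as IL8, fell in both lines. In MiaPaCa2 it went from 102.6 and 101.2 FPKM to 71.0 and 81.9 (log2 fold change -0.56, SE 0.10, limma-voom adjusted p = 0.00082). In PANC1 it went from 4.89 and 5.13 FPKM to 2.86 and 2.35 (-1.07, SE 0.19, limma-voom adjusted p = 0.017). The PANC1 call was lost without either gemcitabine library, with values of -1.23 and -0.89. CXCL2, CXCL3 and CXCL5, tested in MiaPaCa2 only, lay at 0.01, 0.22 and -0.05 on the log2 scale and were not called. These values come from counts. The mean FPKM of CXCL3 rose more, from 3.34 (SD 0.09) in controls to 5.59 (SD 1.03) with gemcitabine. With GC correction CXCL2 lay at -0.09 and CXCL5 at 0.33.

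CXCL16 and CXCL6 also rose in MiaPaCa2. CXCL16 went from 29.0 and 28.8 to 48.3 and 50.6 FPKM (0.73, SE 0.10), and CXCL6 from 2.03 and 1.71 to 2.91 and 2.97 (0.56, SE 0.19). The CXCL6 call was lost in all 4 fits that left out a library (0.49 to 0.65) and in 4 of 10 other settings. ACKR3 fell from 9.96 and 8.34 to 6.65 and 4.74 FPKM (-0.76, SE 0.15). CXCR4 and ACKR3 both bind CXCL12, which had no read in this line.

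Of the CC and CX3C ligands of PANC1, CCL2 and CX3CL1 fell with gemcitabine. CCL2 went from 111.7 and 123.5 FPKM to 74.3 and 81.7 (-0.71, SE 0.11), and CX3CL1 from 21.9 and 16.8 to 12.6 and 9.40 (-0.84, SE 0.16). Both calls were lost when either gemcitabine library was left out, with CCL2 at -0.78 and -0.64 and CX3CL1 at -0.91 and -0.75. CXCL16 stood at 5.01 and 4.77 FPKM in controls and 6.99 and 5.34 with gemcitabine (0.38, SE 0.15), short of the adjusted p, and was called with GC correction at 0.43. CCL28, at 3.26 and 3.07 FPKM against 1.77 and 2.17 in controls (0.34, SE 0.17), and CCL5 (-0.43, SE 0.38) were not called either.

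**Figure D3:**
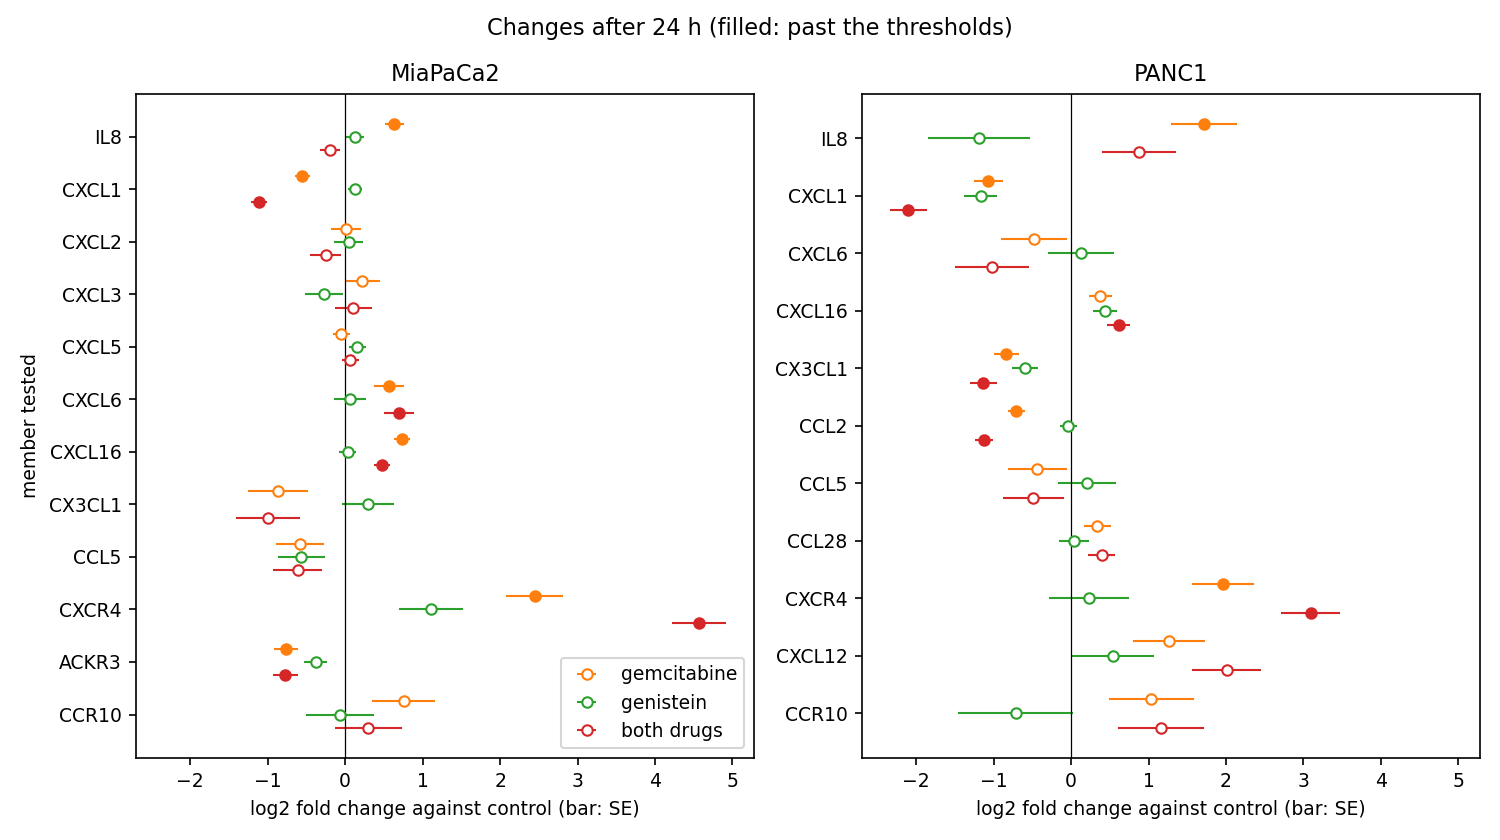
Log2 fold change against control of each gene tested in MiaPaCa2 (left) and PANC1 (right) after gemcitabine, genistein or both drugs; bars are 1 SE and filled points passed the thresholds on adjusted p, fold and FPKM. CXCR4 lies farthest to the right after both drugs in both lines (4.56 and 3.09), and no genistein point is filled.

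Genistein alone was compared next. With limma-voom none of these genes was called in either line, 0 of 12 in MiaPaCa2, where 8.31% of all genes were called, and 0 of 11 in PANC1, where 0.0591% (10 genes) were. Genes with a mean below 1 FPKM with genistein could not be called whatever their change. They were CXCR4, CX3CL1 and CCR10 in MiaPaCa2, and CXCR4, IL8, CXCL6, CXCL12 and CCR10 in PANC1. At an unadjusted p under 0.05 there were 2 in MiaPaCa2 and 3 in PANC1. edgeR's quasi-likelihood test called 0 in both lines, and DESeq2 called 0 in MiaPaCa2 and 2 in PANC1.

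The values behind these counts were small for most members. MiaPaCa2 CXCR4 had 16 and 26 reads with genistein against 7 and 10 in controls (log2 fold change 1.11, interval 0.29 to 1.93). CXCL16 lay at 0.03 (interval -0.19 to 0.25, and -0.04 with GC correction), CXCL1 at 0.13 (-0.06 to 0.32) and IL8 at 0.12 (-0.12 to 0.37) in the same line. With GC correction 3 members were called in MiaPaCa2, namely IL8 (0.76), CXCL5 (0.49) and ACKR3 (-0.46). CXCR4 also passed the adjusted p in that fit (1.04) but lay below 1 FPKM.

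In PANC1 genistein, CXCL1 measured 2.35 and 2.17 FPKM against 4.89 and 5.13 in controls (-1.17, interval -1.59 to -0.75), and CX3CL1 10.1 and 9.85 against 21.9 and 16.8 (-0.60, interval -0.94 to -0.26). Neither passed the adjusted p of limma-voom. These were the 2 genes DESeq2 called, and GC correction called both of them (-1.33 and -0.56) and CXCL16 (0.55). CCL2, at 112.01 and 119 FPKM with genistein, overlapped its controls at 111.7 and 123.5 (-0.04, interval -0.25 to 0.18). IL8 had 6 and 3 reads with genistein against 14 and 30 in controls (-1.19, interval -2.50 to 0.12).

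The combination of both drugs was compared with control. In MiaPaCa2, 5 of 12 were called, 3 higher (CXCR4, CXCL6 and CXCL16) and 2 lower (CXCL1 and ACKR3), against 40.5% of all genes (20.3% higher and 20.2% lower). In PANC1, 5 of 11 were called, 2 higher (CXCR4 and CXCL16) and 3 lower (CXCL1, CX3CL1 and CCL2), against 17.1% (10.2% and 6.9%). The gemcitabine and combination comparisons share their control libraries, so their calls are not independent.

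CXCR4 reached its highest level in these libraries. It had 200 and 227 reads in MiaPaCa2 (7.73 and 7.67 FPKM), 23.7-fold above control (log2 fold change 4.56, SE 0.35, limma-voom adjusted p = 7.9e-07). In PANC1 it had 74 and 92 reads (2.96 and 3.14 FPKM), 8.53-fold above control (3.09, SE 0.38, limma-voom adjusted p = 0.0021). The lowest library with both drugs lay above the highest library of every other treatment in each line. With 2 libraries per group this is a weak criterion, and the share of all genes that met it was not counted.

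CXCL1 reached its lowest level with both drugs. In MiaPaCa2 it measured 50.5 and 50.0 FPKM (-1.12 against control, SE 0.10), and in PANC1 1.19 and 1.34 FPKM (-2.10, SE 0.23). IL8 in MiaPaCa2 stood at 48.5 and 36.1 FPKM, spanning its controls at 48.0 and 42.0 (-0.19, interval -0.45 to 0.06). The direction of this IL8 value turned with GC correction, under which it was 0.77 and called higher. In PANC1, IL8 had 34 and 19 reads with both drugs (1.30 and 0.639 FPKM). Its log2 difference from control was 0.88 (interval -0.07 to 1.83, limma-voom adjusted p = 0.23) and was not called. With a mean of 0.970 FPKM in that group it could not be called whatever its change. With GC correction the PANC1 value was 1.005 and passed the adjusted p (limma-voom adjusted p = 0.025), but the FPKM limit still held. In MiaPaCa2, CXCL5 also became a call under GC correction (0.65 against 0.07), as did CXCL2 (-0.43 against -0.25).

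**Figure D4:**
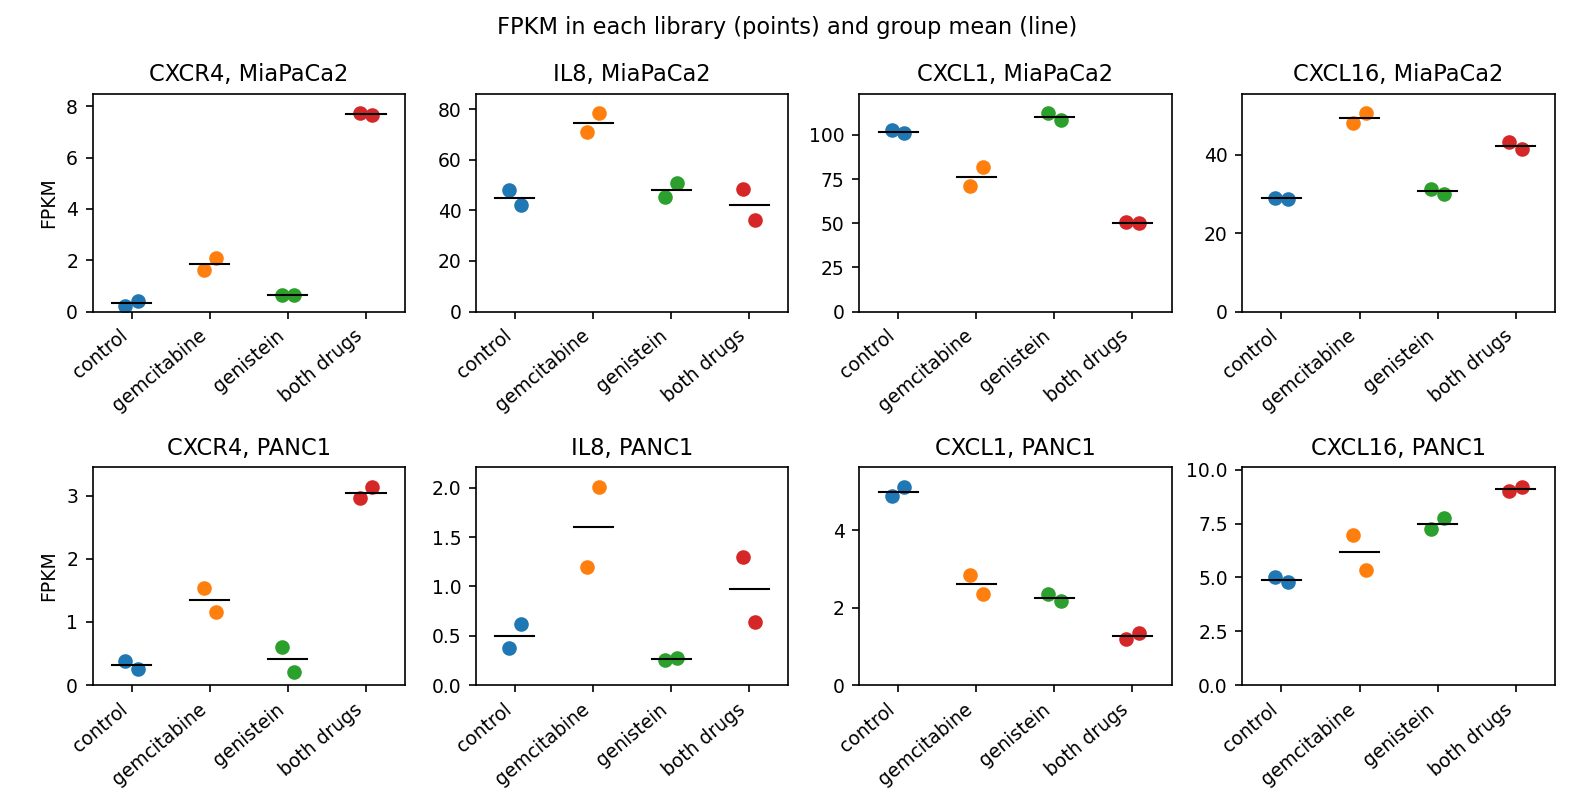
FPKM of CXCR4, IL8, CXCL1 and CXCL16 in each library (points) and the mean of the 2 replicates (line) by treatment, MiaPaCa2 above and PANC1 below; each panel has its own axis from 0. CXCR4 is highest and CXCL1 lowest with both drugs in each line, and the mean of IL8 is highest with gemcitabine alone, although its PANC1 libraries with gemcitabine and with both drugs overlap.

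CXCL16 rose to 43.2 and 41.5 FPKM in MiaPaCa2 (0.48, SE 0.11) and to 9.01 and 9.21 in PANC1 (0.61, SE 0.15). The MiaPaCa2 value was 0.14 and no longer called with GC correction. The PANC1 call was lost in 3 of 4 fits that left out a library, those without either library given both drugs (0.64 and 0.59) and without control replicate 2 (0.53). CXCL6 measured 3.37 and 2.92 FPKM in MiaPaCa2 (0.70, SE 0.19, lost without control replicate 2, at 0.62). ACKR3 measured 5.98 and 6.03 FPKM (-0.77, SE 0.16).

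In PANC1, CCL2 measured 59.6 and 61.2 FPKM with both drugs (-1.12, SE 0.12) and CX3CL1 8.53 and 9.04 (-1.13, SE 0.17). All treated libraries of these 2 genes lay below all controls, a weak criterion with 2 libraries per group. The share of all genes separated in this way was not counted. CXCL12 passed the adjusted p alone (2.01, SE 0.44), with at most 12 reads in any library and under 1 FPKM. CCL28 stood at 3.01 and 2.93 FPKM against 1.77 and 2.17 (0.40, SE 0.18) and was not called.

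The addition of genistein to gemcitabine was tested by comparing both drugs with gemcitabine alone. In MiaPaCa2, 3 of 12 were called (5.88% of all genes, 4.05% higher and 1.83% lower). CXCR4 was higher (2.12, SE 0.20, limma-voom adjusted p = 0.00027), and IL8 (-0.83, SE 0.12) and CXCL1 (-0.56, SE 0.10) were lower. IL8 thus went from 71.0 and 78.4 FPKM with gemcitabine to 48.5 and 36.1 with both. The IL8 and CXCL1 calls were lost without gemcitabine replicate 2, at -0.74 and -0.44. The GC-corrected IL8 value was -0.47.

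In PANC1, 0 of 11 were called by limma-voom (0.0177% of all genes, 3 genes), with 3 at an unadjusted p under 0.05 and 0 by edgeR and by DESeq2. The CXCR4 difference was 1.13 (interval 0.53 to 1.73), CXCL1 -1.03 (-1.54 to -0.53) and CCL2 -0.41 (-0.66 to -0.16). These 3 were the genes called once GC was corrected, at 1.04, -1.05 and -0.44.

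A departure from additive log2 effects was tested as a gemcitabine by genistein interaction, called on the adjusted p alone. In MiaPaCa2 0 of 12 passed with limma-voom (0.0249% of all genes), 3 had an unadjusted p under 0.05, and edgeR called 0 and DESeq2 2. IL8 (-0.96, SE 0.17) and CXCL1 (-0.69, SE 0.14) lay farthest below additivity relative to their error and were the 2 that DESeq2 and the GC-corrected fit called, the latter at -1.23 and -0.73. The CXCR4 interaction was 1.01 (interval 0.09 to 1.92). In PANC1 0 of 11 passed with limma-voom, 0 had an unadjusted p under 0.05, and edgeR and DESeq2 called 0, with no gene of the genome called (0%).

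Whether the lines responded differently was tested on all 16 libraries with a line by drug term. CXCL2, CXCL3, CXCL5 and ACKR3 passed the filter on low counts in MiaPaCa2 only, and CCL2, CCL28 and CXCL12 in PANC1 only. With so few reads in the other line, the test could hardly find a difference in response to either drug for them. None of 15 genes passed with limma-voom for gemcitabine (15.3% of all genes), with 4 at an unadjusted p under 0.05, 1 by edgeR and 2 by DESeq2. The CXCR4 difference between the responses, PANC1 minus MiaPaCa2, was -0.57 (interval -1.70 to 0.57). For CXCL1 it was -0.61 (-1.04 to -0.17), for CXCL6 -1.14 (-1.99 to -0.30) and for IL8 0.99 (0.12 to 1.85). CXCL1 and CXCL6 were called with GC correction, at -0.63 and -1.58. For genistein 0 of 15 passed with limma-voom (0.0336% of all genes), with 3 at an unadjusted p under 0.05 and 1 each by edgeR and DESeq2. That gene was CXCL1, with a difference of -1.35 (-1.83 to -0.87), and it was also called with GC correction (-1.49).

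Genes whose pattern was closest to CXCR4 and IL8 were found by Pearson correlation of log2 CPM over the 16 libraries after centring each line, among 15095 genes. For CXCR4 they were CAMK2N2 (0.971), FOXC1 (0.967) and C17orf103 (0.967). For IL8 they were STARD13 (0.893), HAUS2 (0.891) and ZNF367 (0.889). The points share treatments and libraries, so these are descriptions.

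Genes around the chemokine system were counted in the same comparisons. Of 17 further members of the system (other atypical receptors, XC and platelet chemokines, MIF and its receptor CD74), only 2 were tested in MiaPaCa2 and 3 in PANC1. With gemcitabine or both drugs 0 of them were called in either line. After both drugs the atypical receptor ACKR2 had the smallest adjusted p in MiaPaCa2 (1.27, SE 0.53, limma-voom adjusted p = 0.060). In PANC1 it was MIF, a cytokine that also binds CXCR4 (-0.61, SE 0.21, limma-voom adjusted p = 0.074). Between untreated lines 2 of 4 tested were called, beside 52.3% of all genes. They were CD74 (4.95, SE 0.64) and PF4V1 (4.19, SE 0.66), both higher in PANC1. Both had enough reads for testing in PANC1 alone, so this difference was largely set by their entry. ACKR2 passed the adjusted p (-1.54, SE 0.62) but was not called.

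For the signalling genes below the receptors (G protein subunits, receptor kinases, arrestins, Rac and focal adhesion genes), gemcitabine called 2 higher and 6 lower of 23 tested in MiaPaCa2 and 1 higher and 6 lower of 25 in PANC1. Over all genes the shares were 15% higher and 14.6% lower (29.6% in all) in MiaPaCa2, to which 8 of 23 is near, and 4.49% and 3.03% in PANC1. The medians were 0.01 and -0.30, beside -0.01 and 0.03 over all genes. In this and the following lists, at most the 3 genes with the smallest adjusted p in each comparison are named. A gene named for MiaPaCa2 or PANC1 alone may therefore have changed in the other line too. PTK2, the focal adhesion kinase (-0.79, SE 0.11), and CDC42, a small GTPase of the cytoskeleton (-0.63, SE 0.10), fell in MiaPaCa2. GNB1, a G protein beta subunit, lay just inside the fold limit there (-0.40, SE 0.07) and fell in PANC1 (-0.51, SE 0.06). ARRB1, the arrestin that desensitizes G-protein-coupled receptors, fell in PANC1 (-1.02, SE 0.11), where PAK1 rose (0.41, SE 0.08).

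With both drugs the same list had 3 higher and 7 lower in MiaPaCa2 and 0 higher and 10 lower in PANC1, against 40.5% and 17.1% of all genes called in either direction. The MiaPaCa2 count of 10 of 23 is near that share. GRK5, a kinase that phosphorylates active receptors, rose in MiaPaCa2 (1.32, SE 0.15), while PTK2 (-0.90, SE 0.11) and DOCK1 (-0.89, SE 0.11) fell. In PANC1 ARRB1 (-1.38, SE 0.12), GNB1 (-0.65, SE 0.07) and PTK2 (-0.78, SE 0.10) fell.

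In the list of NF-kB subunits, their inhibitors and cytokine and AP-1 genes, gemcitabine called 10 higher and 1 lower of 21 in MiaPaCa2 (median 0.43) and 7 higher and 2 lower of 21 in PANC1 (median 0.51), where 29.6% and 7.52% of all genes were called. FOS, an AP-1 subunit, rose in both lines (2.24, SE 0.22, and 2.81, SE 0.27). NFKB2 (0.96, SE 0.10) and RELB (1.57, SE 0.19), partners of the noncanonical pathway, rose in MiaPaCa2. The study reported both as raised by gemcitabine in PANC1 as well. TNFAIP3, an NF-kB inhibitor (1.53, SE 0.16), and JUN (1.71, SE 0.21) rose in PANC1. After both drugs 9 were higher and 2 lower in MiaPaCa2 and 8 higher and 2 lower in PANC1, against 40.5% and 17.1% of all genes. These included FOS at 2.79 (SE 0.21) and 4.10 (SE 0.26), NFKB2 (1.17, SE 0.10) and the inhibitor NFKBIE (1.51, SE 0.17) higher in MiaPaCa2, and TNFAIP3 (1.93, SE 0.16) and JUN (1.91, SE 0.21) higher in PANC1.

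The list of ligand-shedding proteases, heparan sulfate carriers and tyrosine sulfotransferases had 5 higher and 1 lower of 14 with gemcitabine in MiaPaCa2 and 0 higher and 1 lower of 16 in PANC1, against 29.6% and 7.52% of all genes, and the PANC1 count is near its share. TPST1, which sulfates chemokine receptors (0.97, SE 0.11), and the syndecans SDC4 (0.57, SE 0.08) and SDC3 (0.53, SE 0.08) rose in MiaPaCa2. The gelatinase MMP2 fell in PANC1 (-0.50, SE 0.09). With both drugs 7 were higher and 3 lower in MiaPaCa2 (40.5% of all genes), where ADAM10, a sheddase of CX3CL1 and CXCL16, fell (-1.17, SE 0.14) and TPST1 (1.05, SE 0.11) and SDC4 (0.69, SE 0.08) rose. In PANC1 only MMP2 of this list was called (-0.77, SE 0.09), against 17.1% of all genes.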

How the data were processed

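Per the labels and the study's methods, poly-A RNA was made into stranded libraries and read as single 50-base reads. The authors aligned with TopHat2 2.0.4 to GRCh37, removed reads with several alignments with Picard 1.29, deposited raw gene counts from HTSeq 0.6.1, and deposited FPKM from Cufflinks 2.1.1. Which annotation release was used, and whether strand was counted, is not given in the sources used here. Counts and FPKM were joined by gene identifier, and FPKM of identifiers on several rows were summed. Groups follow the labels.

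Counts of genes passing filterByExpr were scaled by TMM and tested with limma-voom (R 4.3.3, limma 3.58.1, edgeR 4.0.16), in each line separately (8 libraries) and on all 16 libraries for differences between lines. p-values were adjusted by Benjamini-Hochberg over all genes tested and are two-sided. A drug or baseline change was called where the adjusted p was 0.05 or less, the log2 change 0.4 or more in size, and the mean above 1 FPKM in the treated group or, between lines, the higher group. Interactions and response differences needed the adjusted p alone. Where a group had 3 or fewer reads per library, folds were bounded with 3 reads. DESeq2 1.42.0, edgeR's quasi-likelihood test, other scalings, FPKM-based fits, a GC-corrected fit and left-out libraries were the alternatives.

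Values by library are given for genes above 1 FPKM in a group or called. Other list genes are given by counts and the 3 smallest adjusted p per comparison, printed here for gemcitabine and for both drugs. The members and lists were chosen with earlier results of these data known. Values of 1 member and 1 marker gene are not reported here. Positions are GENCODE v44lift37 (49 of 59 identifiers), and promoters are RefSeq (GRCh38.p14).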

Additional observations from a re-analysis of the deposited data

How the results depend on the processing

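In 370 refits of the 37 gene results that passed the adjusted p, 338 still passed, 32 did not and none turned direction, and in 148 fits without 1 library 26 did not pass and none turned. Where leaving out a library leaves 1 sample in a group, that sample is assumed to vary like the others. The counts of called genes that moved by over 1.5 times were these. GC correction gave 3 in MiaPaCa2 genistein (0 in the fit reported), 2 in the MiaPaCa2 interaction, 3 in PANC1 genistein, 3 in PANC1 both drugs against gemcitabine, 2 for the gemcitabine and 1 for the genistein response difference. With GC correction and the replicate block together these were 3, 1, 2, 2, 2 and 1. CCL5 has no GC value and is not in these fits. DESeq2 gave 2 in the MiaPaCa2 interaction, 2 in PANC1 genistein, and 2 and 1 for the response differences, and edgeR gave 1 for each of the latter. On log2(FPKM + 1) MiaPaCa2 both drugs against gemcitabine had 1 call (0 with a pseudocount of 0.1), PANC1 gemcitabine 3 (1 with 0.1) and the gemcitabine response difference 1. Scaling by library size alone moved the median of all genes by 0.11 in gemcitabine of both lines and by 0.16 in PANC1 both drugs against control, and GC correction moved that between untreated lines by -0.29. The cause of these moves was not tested.

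Leaving out 1 library gave 1 to 3 calls for MiaPaCa2 both drugs against gemcitabine (1 without gemcitabine replicate 2), 0 to 1 for the MiaPaCa2 interaction (1 without both drugs replicate 1), and 0 to 3 for PANC1 gemcitabine (0 without either gemcitabine library, 3 without either control). Identifiers counted were 21 to 23 in MiaPaCa2 and 27 to 30 in PANC1 without 1 library. They numbered 12 and 14 with more than 3 reads, 10 and 8 with a mean above 1 FPKM, and 14 and 18 with a read in both libraries of a group, against 23 and 30.

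Same-numbered replicates did not deviate together throughout. The correlation of their deviations ran from -0.30 to 0.16 over 6 pairs of groups in MiaPaCa2 (1 above 0.1) and from -0.57 to 0.33 in PANC1 (3 above 0.1). The replicate block left 1 call in PANC1 gemcitabine in place of 5 (CXCR4, adjusted p = 0.0539, CXCL1, 0.0524, CX3CL1, 0.0566, and IL8, 0.107, by limma-voom were lost), 5 in place of 6 in MiaPaCa2 gemcitabine and 4 in place of 5 in PANC1 both drugs against control, and moved no other count.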
